A study of Mus musculus with 2 samples.

Results

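The genes described here encode the machinery that licenses origins of DNA replication and copies DNA at the fork. The list held 48 gene symbols, named for their roles in replication, and all 48 were found by symbol among the 47643 gene IDs of the count files. They were measured by messenger RNA sequencing of E14 cells, a mouse embryonic stem cell line of 129/Ola background, whose labels give the genotype as a knockout of both AGO1 and AGO2. Argonaute proteins carry microRNAs and repress their targets. The study had 1 group of 2 libraries, called replicate 1 and replicate 2 here, both from cells kept in medium with 15% serum and 100 U/mL LIF, on plates coated with 0.2% gelatine. Both libraries are labelled with the double knockout, and cells labelled without it were not analysed here. An effect of the knockout can therefore not be told apart in any value below. The labels name neither the edited alleles nor separate clones or cultures for the libraries, so the spread between them may be technical.

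Total counts were 34798975 in replicate 1 and 29789560 in replicate 2. All 8 listed stem cell markers were expressed, from Esrrb at 251 and 267 TPM to Dppa5a at 13780 and 12192 TPM, whereas Col3a1, Postn and Lum, which mark feeder fibroblasts, had no count in either library (3 counts would be 0.0862 and 0.101 CPM). Of the 8 fibroblast markers 2 were expressed, and their summed level was 23.9 and 22.7 TPM, of which Thy1 gave 22.8 and 21.2. Reads were assigned to both targeted genes, Ago1 at 70.8 and 141 CPM and Ago2 at 124 and 129 CPM. For Ago1 the log2 ratio of replicate 2 over replicate 1 was 0.99 ± 0.04 (counting SE, adjusted p = 1.43e-08 in edgeR's exact test). Such whole-gene counts do not show an edited exon and check no genotype.

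Replication is licensed in G1, when the origin recognition complex, Cdc6 and Cdt1 load the Mcm2 to Mcm7 helicase onto DNA, and geminin blocks further loading once S phase has begun. Cdc45 and the GINS complex then turn the loaded helicase into the moving motor of the fork. Polymerase alpha-primase lays primers, polymerases epsilon and delta extend the leading and lagging strands, and clamp, clamp loader, flap nuclease and ligase finish the copies. Mouse embryonic stem cells have a short G1 phase and spend much of their cycle in S phase, and many of these genes are known targets of E2F transcription factors.

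Promoter sequence was therefore examined for the E2F motif first. RefSeq windows of the GRCm38.p6 build, 250 bases before and 50 bases after a gene start given by RefSeq, were on hand for 39 of the 48 members. This start can differ from the 5′ end of the GENCODE gene whose exon lengths and positions are used below. The E2F motif was searched on both strands as TTTCCCGC, TTTCGCGC, TTTGCCGC or TTTGGCGC. Written on the other strand it reads GCGGGAAA, GCGCGAAA, GCGGCAAA or GCGCCAAA. Matches that overlap were all counted. The motif was found for 17 of the 39 members (43.6%), for 9 of 65 other genes of the pathway (13.8%), for 4.88% of the 9782 protein-coding genes expressed in both libraries with a window, and for 2.60% of all 27025 genes with a window. By single windows the share was 37.5% of 48 for the members and 2.26% of 32851 overall. These shares are a description, a match is no evidence of binding, and no test was run on them.

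**Figure D1:**
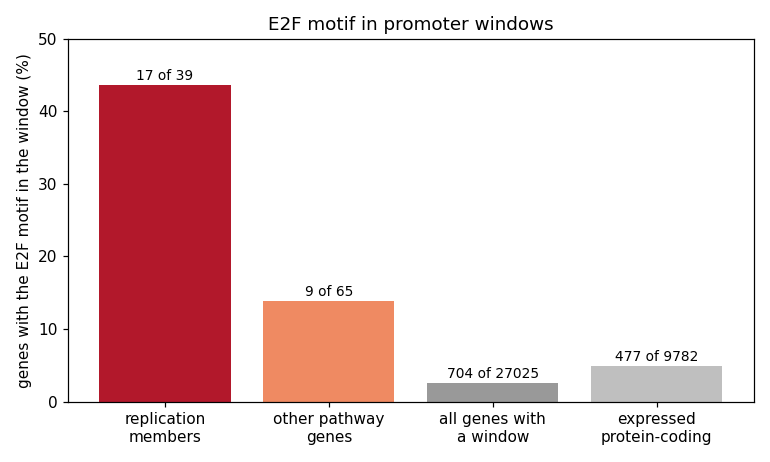
Share of genes (%, bar height from 0) with the E2F motif on either strand in a window of 300 bases around the gene start, with the number of genes on each bar. The share is 43.6% for the replication members, 13.8% for other pathway genes, 4.88% for expressed protein-coding genes and 2.60% for all genes with a window.

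The stretches below run from 20 bases before the first motif upstream of the RefSeq start to the last base before that start. Those of Cdc6, Mcm7, Gins3 and Pole4 lie within the span of the GENCODE gene, and those of Orc1 and Orc3 in part. Where a gene had several windows, a window with the most matches was used. They are shown because they hold the motif in genes of successive steps: origin recognition, loading, helicase, priming and leading strand synthesis. Each is printed 5′ to 3′ on the gene's strand, with motif matches in capitals.
Orc1 (chr4:108579407-108579453, plus strand): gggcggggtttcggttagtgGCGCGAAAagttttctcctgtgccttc
Orc3 (chr4:34614943-34615003, minus strand): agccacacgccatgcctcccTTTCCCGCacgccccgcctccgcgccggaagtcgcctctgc
Cdc6 (chr11:98907993-98908150, plus strand): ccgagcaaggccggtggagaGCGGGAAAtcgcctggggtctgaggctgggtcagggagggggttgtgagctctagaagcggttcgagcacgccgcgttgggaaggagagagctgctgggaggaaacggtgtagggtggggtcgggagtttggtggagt
Mcm5 (chr8:75109336-75109508, plus strand): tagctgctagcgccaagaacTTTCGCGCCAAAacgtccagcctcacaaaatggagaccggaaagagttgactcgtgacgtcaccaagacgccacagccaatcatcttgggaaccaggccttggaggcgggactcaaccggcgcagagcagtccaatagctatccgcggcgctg
Mcm6 (chr1:128359706-128359835, minus strand): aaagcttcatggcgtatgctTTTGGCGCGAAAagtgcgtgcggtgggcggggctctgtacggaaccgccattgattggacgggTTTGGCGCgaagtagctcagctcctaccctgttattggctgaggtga
Mcm7 (chr5:138171884-138172068, minus strand): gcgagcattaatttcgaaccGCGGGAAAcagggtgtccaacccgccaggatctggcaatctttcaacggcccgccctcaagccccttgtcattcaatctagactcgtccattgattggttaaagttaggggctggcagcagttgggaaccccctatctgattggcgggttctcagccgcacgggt
Gins3 (chr8:95633498-95633558, plus strand): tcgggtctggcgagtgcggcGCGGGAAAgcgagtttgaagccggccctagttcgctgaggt
Pola1 (chrX:93632156-93632313, minus strand): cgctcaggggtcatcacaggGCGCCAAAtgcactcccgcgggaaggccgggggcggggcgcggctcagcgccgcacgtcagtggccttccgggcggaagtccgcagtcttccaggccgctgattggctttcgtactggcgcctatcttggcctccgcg
Pole4 (chr6:82652866-82652928, minus strand): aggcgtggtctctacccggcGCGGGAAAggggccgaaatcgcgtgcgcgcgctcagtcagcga

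In Mcm5 a forward and a reverse match overlap, at bases -153 and -149 from the start, so that the capitals run on. In Mcm6 such a pair lay at -110 and -106, and another forward match lay at -47. The Mcm6 window held 3 matches, more than any other member's. Of the 23 matches in member windows, 13 lay upstream of the RefSeq start and 10 after it. A Pole4 match that lies in both of its overlapping windows was counted once. The upstream matches of Cdc6, Gins3, Mcm7, Orc1, Pole4 and Rfc3 lie within the span of the GENCODE gene. Matches after the RefSeq start include those of Cdt1, Clspn, Lig1, Mcm3 and Pold1. By complex, 4 of 5 helicase genes with a window held the motif, both loaders with a window, 2 of 3 genes each of polymerases delta and epsilon, 2 of 6 origin recognition genes, 1 of 5 clamp and clamp loader genes, and none of the 3 RPA and 2 ribonucleotide reductase genes.

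Among the most abundant members, Pcna and Rrm2 had no match in their window. The last 100 bases before their RefSeq starts are shown for contrast. Those of Pcna lie within the span of its GENCODE gene, and those of Rrm2 in part.
Pcna (chr2:132253181-132253280, minus strand): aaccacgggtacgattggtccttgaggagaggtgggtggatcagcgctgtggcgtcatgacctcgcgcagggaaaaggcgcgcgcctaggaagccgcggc
Rrm2 (chr12:24708154-24708253, plus strand): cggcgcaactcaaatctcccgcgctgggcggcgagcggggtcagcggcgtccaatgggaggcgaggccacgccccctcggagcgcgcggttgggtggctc
A missing match says only that these letters are not in the window. Members with and without the motif stood at similar levels, with a median of 71.6 TPM (13.8 to 391) for the 17 and of 71.0 TPM (19.2 to 423) for the 22.

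Levels between genes are given in TPM, counts divided by the summed length of all annotated exons and scaled to the same sum in each library. A gene was called expressed at 1 CPM, the count scaled to the library total without regard to length, in both libraries. All 48 members were expressed, against 58% of the 21620 protein-coding genes. The lowest, Gins3 (ENSMUSG00000031669; GRCm38 chromosome 8, 95633453 to 95645060, plus strand), still had 464 and 413 counts, or 13.3 CPM (95% exact Poisson interval 12.1 to 14.6) and 13.9 CPM (12.6 to 15.3). Such intervals cover counting error only. The median over members was 73.0 TPM in replicate 1 and 74.9 TPM in replicate 2, and 47 of 48 members lay above 17.4 TPM, the median of the 12530 expressed protein-coding genes. On the log2(TPM + 1) scale the median was 6.23 ± 0.03 (SD, n = 2). Together the members summed to 5136 and 5101 TPM.

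**Figure D2:**
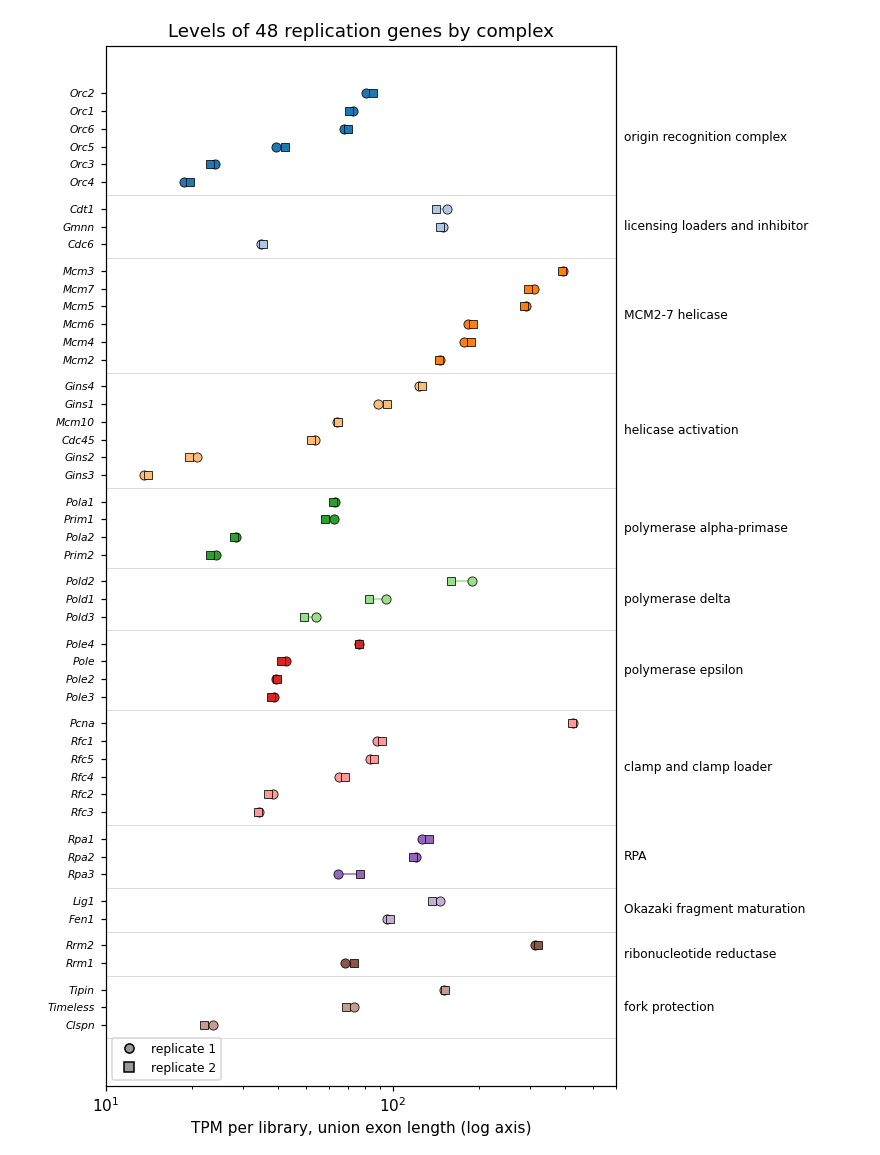
TPM of each of the 48 members in replicate 1 (circles) and replicate 2 (squares) on a log axis, grouped and coloured by complex. Pcna and Mcm3 are highest at about 423 and 391 TPM and Gins3 lowest at 13.8 TPM, and the points of most genes nearly coincide.

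The origin recognition complex, which marks origins on DNA, was expressed at moderate and unequal levels. Orc2 stood at 81.0 and 85.4 TPM in replicates 1 and 2. Orc1, the subunit whose protein is cell cycle regulated in many mammalian cells, stood at 72.7 and 70.6 TPM. Orc6, the smallest subunit, stood at 67.7 and 69.9 TPM. These 3 genes formed the upper part of the complex, and Orc1 and Orc6 did not overlap between libraries. Orc5 had 39.2 and 42.1 TPM, Orc3 24.1 and 23.0 TPM and Orc4 18.8 and 19.6 TPM. The highest subunit thus exceeded the lowest 4.33 times. With the length of the longest coding transcript in place of all exons, Orc5 rose to 86.6 TPM and became the highest, Orc3 rose to 45.3 TPM, and Orc4 stayed lowest at 25.6 TPM.

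Of the loading factors, Cdt1 and its inhibitor stood at near levels. Cdt1, which brings the helicase to the origin, had 155 and 141 TPM. Gmnn, which encodes geminin, had 150.1 and 146 TPM. With all exons as the length, their values overlapped between libraries. By longest transcript they did not, with Cdt1 at 161 and 148 TPM and Gmnn at 141 and 138 TPM. Cdc6, an ATPase that works with the origin recognition complex, stood at 34.8 and 35.5 TPM, 4.22 times below Cdt1.

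The 6 helicase genes were the most abundant complex, with 29.2% of the summed member TPM in replicate 1 and 29.4% in replicate 2. Mcm3 (ENSMUSG00000041859; chromosome 1, 20802968 to 20820312, minus strand) led with 392 and 389.6 TPM. Mcm7 followed at 309.8 and 297 TPM, and Mcm5 at 291 and 288 TPM. These 3 stood apart from the other 3 subunits in both libraries. Mcm6 had 184 and 191 TPM, Mcm4 177 and 188 TPM and Mcm2 147 and 145 TPM. The subunits act as a ring with 1 copy of each, and their transcripts spanned a factor of 2.69. By longest transcript the factor was 2.65, but Mcm2 rose to 218 TPM, above Mcm6 (146) and Mcm4 (133). The other genes of the family were far lower. Mcm8, which acts in recombination, had 16.0 and 16.7 TPM, Mcm9, its partner, 5.89 and 4.28 TPM, and the germ line gene Mcmdc2 0.215 and 0.219 TPM.

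The genes that turn the loaded helicase into an active motor had a median of 58.8 TPM in replicate 1 and 58.3 TPM in replicate 2, with wide differences between subunits. Among the GINS subunits, Gins4 had 123 and 126 TPM. Gins1 had 88.7 and 95.6 TPM. Gins2 had 20.9 and 19.5 TPM, and Gins3 13.6 and 14.1 TPM. Gins4 thus exceeded Gins3 9.02 times, and 8.64 times by longest transcript, although the products are thought to act as 1 copy each. Exons of Gins2 overlap those of Gse1 on the opposite strand over 2758 of 4097 bases, so its level is uncertain. Cdc45, which joins GINS on the helicase, stood at 53.7 and 51.9 TPM. Mcm10, an activator needed for origin firing, stood at 63.9 and 64.6 TPM.

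With all exons as the length, the genes of the priming enzyme stood low for the list. Their median was 45.6 TPM in replicate 1 and 43.0 TPM in replicate 2, against 73.0 and 74.9 TPM for all members. Pola1, its polymerase subunit, had 62.9 and 61.8 TPM. Prim1, the primase, had 62.6 and 58.1 TPM. Pola2, an accessory subunit, had 28.5 and 28.0 TPM and Prim2, the large primase subunit, 24.3 and 23.1 TPM. Both this order and how low the genes stood depended on gene length. By longest transcript Prim1 was highest at 107 TPM, Pola1 stood at 74.7, Pola2 at 70.3 and Prim2 at 51.7, and the ratio of highest to lowest fell from 2.63 to 2.07.

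Of the polymerases that extend primers, the delta genes had a median of 94.99 and 82.9 TPM and the epsilon genes one of 40.8 and 40.1 TPM. In polymerase delta, Pold2, an accessory subunit (ENSMUSG00000020471; chromosome 11, 5872180 to 5878292, minus strand), had 189 and 159 TPM. Pold1, the catalytic subunit (ENSMUSG00000038644; chromosome 7, 44532746 to 44548849, minus strand), had 94.99 and 82.9 TPM. Pold3, which contacts the clamp (ENSMUSG00000030726; chromosome 7, 100082111 to 100121565, minus strand), had 54.2 and 49.0 TPM. In each of the 3 genes replicate 2 was the lower library. Pold4, the smallest subunit and no member of the list, had 11.1 and 7.93 TPM, with 21.7% of its sequence shared with other genes. In polymerase epsilon, the catalytic gene Pole had 42.4 and 40.7 TPM, Pole2 39.2 and 39.6 TPM and the histone-fold subunit Pole3 38.7 and 37.8 TPM. Pole4, the partner of Pole3, stood higher at 76.2 and 76.3 TPM. The other 3 lay close together by this length, whereas by longest transcript Pole3 was at 31.4 TPM, below Pole (47.0) and Pole2 (48.3).

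Pcna, the sliding clamp (ENSMUSG00000027342; chromosome 2, 132249162 to 132253314, minus strand), was the highest of all 48 members, with 424 and 423 TPM. It acts as a ring of identical copies, whereas the clamp loader has 1 copy of each of its subunits. Of its sequence 19.1% recurs in other genes, mainly the pseudogene Pcna-ps2, so that reads may be lost or shared. The loader genes were lower. Rfc1, the large subunit, had 88.2 and 92.1 TPM, Rfc5 83.5 and 85.8 TPM and Rfc4 65.1 and 68.01 TPM. Rfc2 had 38.2 and 36.7 TPM and Rfc3 34.3 and 33.9 TPM. Pcna exceeded Rfc3 12.4 times. By longest transcript Rfc3 rose to 67.9 TPM and Rfc2 became the lowest at 34.3 TPM.

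RPA coats single-stranded DNA. With all exons as the length, the genes of its larger subunits, Rpa1 and Rpa2, stood close together and above Rpa3. Rpa1, the large subunit, had 127 and 134 TPM. Rpa2 had 121 and 118 TPM. Rpa3, the smallest (ENSMUSG00000012483; chromosome 6, 8255936 to 8259173, minus strand), had 64.4 and 76.9 TPM. Replicate 2 was the higher library for Rpa3, and 9.48% of its sequence is shared with other genes. By longest transcript Rpa2 was highest at 143 TPM, and Rpa1 (104) lay nearer to Rpa3 (87.0) than to Rpa2.

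Of the genes that join Okazaki fragments, the ligase gene Lig1 had 146 and 137 TPM and the flap nuclease gene Fen1 95.7 and 98.2 TPM. Exons of Fen1 overlap those of Gm10143 on the opposite strand over 1909 of 2422 bases. Ribonucleotide reductase makes the deoxynucleotides. Rrm2, the gene of its small subunit, had 312 and 321 TPM and was the third highest member, while Rrm1, the gene of its large subunit, had 68.4 and 73.5 TPM. The ratio of 4.47 fell to 2.05 by longest transcript, since Rrm1 has 11012 bases of annotated exon and 3997 in its longest coding transcript. In the group that protects stalled forks, Tipin had 151 and 153 TPM and its partner Timeless 73.3 and 68.8 TPM. Clspn, the mediator that activates the checkpoint kinase Chk1, had 23.7 and 22.0 TPM. Tipin was 6.66 times above Clspn.

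In the order of mean TPM, 24 of the 47 neighbouring pairs did not overlap between libraries and 23 did. From the top, Pcna, Mcm3, Rrm2, Mcm7 and Mcm5 followed one another without overlap. Below them Mcm6 overlapped with Mcm4 and Mcm4 with Pold2, while Tipin overlapped with Cdt1, Cdt1 with Gmnn, Gmnn with Mcm2 and Mcm2 with Lig1. With the length of the longest coding transcript, 7 of the 48 members moved by more than 1.5 times, all upward: Orc3, Orc5, Pola2, Prim1, Prim2, Rfc3 and Rrm1. Spearman's rho between both sets of levels was 0.90 across the 48 genes, which come from the same counts.

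**Figure D3:**
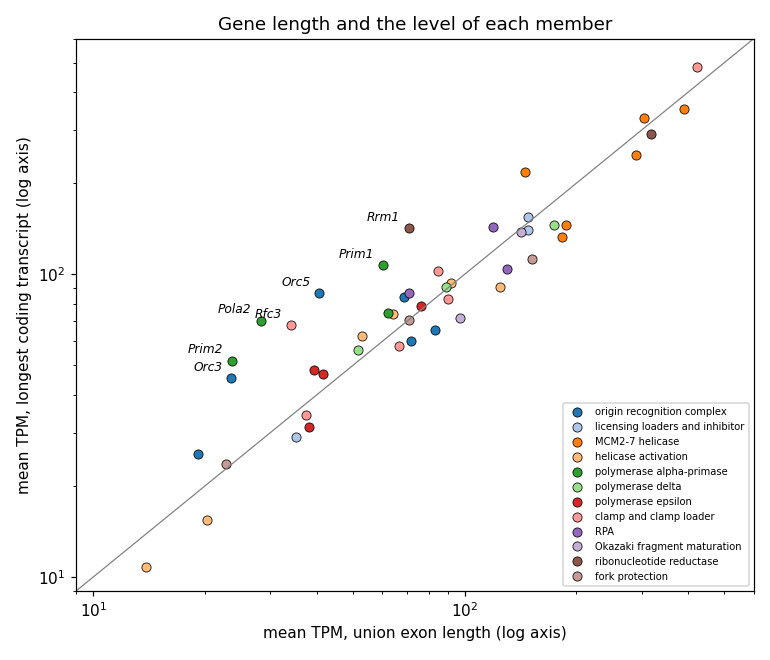
Mean TPM of each member over both libraries with all exons as the length (x, log axis) against the longest coding transcript (y, log axis), with the line of equality. The 7 labelled genes moved by more than 1.5 times, such as Rrm1 from 70.9 to 142 TPM, and all lie above the line.

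Around the members, 83 further genes of the pathway were examined in 10 lists, and 81 of them were expressed. Their median was 30.6 TPM in replicate 1 and 29.99 TPM in replicate 2, against 73.0 and 74.9 TPM for the members; no test was made of this difference. Among regulators of firing (12 of 12 expressed), Rif1, a timing factor, led with 136 and 143 TPM, ahead of Kat7, the acetyltransferase gene of origins, with 112 and 119 TPM. Cdc7, the gene of the kinase that triggers firing, had 28.0 and 27.6 TPM and Donson 12.03 and 11.2 TPM. In the turnover of licensing factors (7 of 7) the ubiquitin ligase adaptor gene Ddb1 had 463 and 426 TPM and Cul4b 195 and 216 TPM. Dtl, the gene of the substrate receptor that targets Cdt1, had 23.0 and 22.2 TPM and Cul4a 25.3 and 25.2 TPM.

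Genes of alternative clamp loaders and primer removal (11 of 11 expressed) ran from Pold4 and Dscc1 (12.6 and 14.2 TPM) to Rnaseh2a (70.8 and 61.2 TPM) and Chtf8 (94.8 and 93.9 TPM). Of the Chtf8 sequence 88.4% is shared, mainly with another annotated gene of the same name whose exons overlap it. The level of Chtf8 is therefore uncertain. In nucleotide supply (9 of 9) Dctpp1, a nucleotide pool cleanser, had 297 and 271 TPM and Dtymk, the thymidylate kinase gene, 116 and 131 TPM. Rrm2b, the p53-linked counterpart of Rrm2, had 10.49 and 11.5 TPM. Rrm2b was thus far below Rrm2. Checkpoint genes (8 of 8) ran from Atrip (4.02 and 4.05 TPM) and Atr (11.3 and 10.9 TPM) to Chek1 (42.2 and 44.5 TPM) and Wee1 (56.7 and 57.2 TPM).

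Of the topoisomerase genes (4 of 4 expressed), Top2a, linked to proliferation, had 226 and 212 TPM and Top1 38.02 and 39.3 TPM, above Top3a (16.8 and 16.1) and Top2b (10.6 and 9.94). In chromatin assembly (6 of 6) the histone chaperone gene Nasp had 254 and 250.01 TPM and Rbbp4 120.1 and 119 TPM, while Chaf1a had 35.4 and 36.2 TPM and Asf1a 17.4 and 22.7 TPM. Polymerase genes outside bulk replication (12 of 13) were low, with a median of 14.4 TPM in replicate 1 and 13.6 TPM in replicate 2. Rev3l, the gene of the catalytic subunit of translesion polymerase zeta, led with 31.6 and 29.99 TPM, followed by Rev1 with 27.7 and 27.3 TPM. Poln had 0.659 and 0.971 TPM, and the lymphoid gene Dntt had no count in either library. All 10 E2F and DP factor genes were expressed. E2f4 had 147 and 143 TPM and the partner gene Tfdp1 79.2 and 85.001 TPM, whereas E2f6 had 8.78 and 10.3 TPM and E2f8 9.78 and 8.99 TPM. Of the 3 other MCM genes, given above, 2 were expressed.

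The libraries were then compared with each other, which sets the error of these levels. A two-sided exact binomial test asked whether a gene's counts differed by more than counting error, and p-values were adjusted by Benjamini-Hochberg over the 19078 genes that had 10 or more counts in total. The test sets the reads of 1 library against those of the other and says nothing of conditions. Of the 48 members 15 were called at an adjusted p under 0.05 (31.2%), 7 higher (14.6%) and 8 lower (16.7%) in replicate 2. Of all tested genes 24.2% were called, 11.2% higher and 13.1% lower. Since calls depend on depth, genes with total counts within the range of the members (877 to 34344) are the closer background, and 37.7% of these 8470 were called. The share of members called was thus no larger than this background. With a spread estimated from both libraries, edgeR's exact test called none of the 48 and 0.456% of all tested genes, and none of the 48 had an unadjusted p under 0.05 in it.

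The differences were small. The log2 ratio of replicate 2 over replicate 1 had a median of -0.01 over the members, as over all tested genes (-0.01), with 23 ratios above and 25 below 0. Its median size was 0.05, against 0.09 for genes in the same count range. The ratios of all members lay between -0.25 and 0.26.

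**Figure D4:**
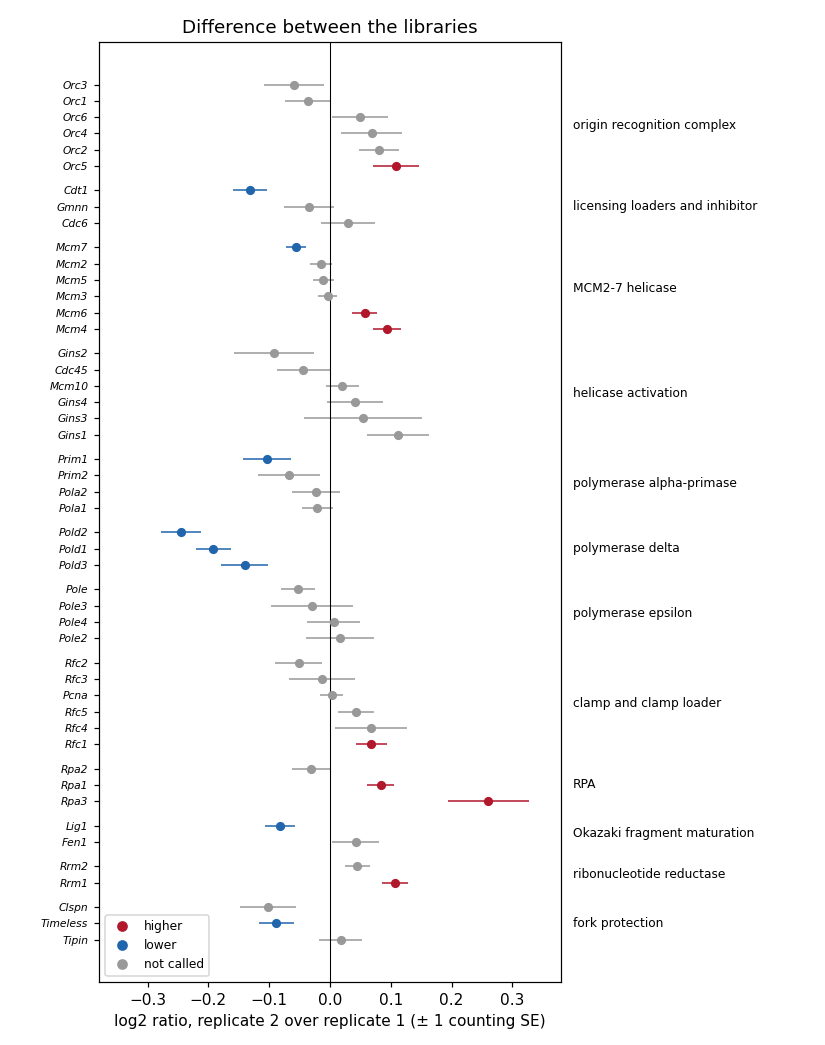
Log2 ratio of replicate 2 over replicate 1 for each member, grouped by complex, with bars of 1 counting SE; red and blue mark genes called higher and lower by the exact binomial test. Pold2 lies lowest at -0.25 and Rpa3 highest at 0.26, and all 3 polymerase delta genes are blue.

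Polymerase delta was the only complex in which all listed members were called in the exact binomial test, each of them lower. Of the genes in the members' count range, 18.1% were called lower. Pold2 had 4515 and 3266 counts, or 130 CPM (95% exact Poisson interval 126 to 134) and 109.6 CPM (106 to 113). Its log2 ratio of -0.25 ± 0.03 (counting SE) put replicate 2 lower, and its adjusted p was 4.7e-12 by the exact binomial test. Pold1 was lower by -0.19 ± 0.03 (adjusted p = 7.79e-10, exact binomial test) and Pold3 by -0.14 ± 0.04 (adjusted p = 0.00225, exact binomial test). None of these 3 calls held in edgeR's exact test (adjusted p = 1 for each). Pold4, no member of the list, had 162 and 100 counts and a ratio of -0.47 ± 0.18. It was also called lower (adjusted p = 0.0459, exact binomial test), and edgeR's exact test did not call it. All 4 genes of polymerase alpha-primase also had ratios below 0, from -0.10 for Prim1 to -0.02, and only Prim1 was called. The ratios of Pola1 and Pola2 lay within 1 counting SE of 0.

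Of the members called higher, Rpa3 had the largest ratio, 0.26 ± 0.07 (adjusted p = 0.000817, exact binomial test), from 921 and 946 counts. Rrm1 (0.11), Orc5 (0.11), Mcm4 (0.09), Rpa1 (0.08), Rfc1 (0.07) and Mcm6 (0.06) were the others. Members called lower beside Pold1, Pold2, Pold3 and Prim1 were Cdt1 (-0.13), Timeless (-0.09), Lig1 (-0.08) and Mcm7 (-0.06). Within the helicase, 2 subunits were thus called higher, 1 lower and 3 not called, while the summed level was 1500 and 1498 TPM. Pcna, with 12801 and 10995 counts, had a ratio of 0.00 ± 0.02, and Mcm3 had 18514 and 15830 counts and was not called. Among the 83 further pathway genes, 16 were called higher and 14 lower, and none was called with a ratio past 0.5 in size.

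GC content moved with these ratios. Across the 48 members Spearman's rho of the log2 ratio with the GC content of a gene's transcripts was -0.48, and across genes in the same count range it was -0.37. The genes share the same libraries and are not independent, so no p is given. All 4 members with a GC content of at least 55% had ratios below 0 (Pold1 at 60.6%, Cdt1, Pold2 and Mcm2), and 10 of 13 members under 45% had ratios above 0, with Rpa3 at 37.3%. After a smooth trend on GC content and length over all tested genes was removed, the ratio was -0.16 for Pold2, -0.10 for Pold1, -0.15 for Pold3, -0.04 for Cdt1 and 0.18 for Rpa3. All 15 called members kept their sign, but Timeless (-0.01) and Lig1 (-0.02) then lay within 1 counting SE of 0. Cdt1, Mcm7 (-0.03), Rfc1 (0.04), Orc5 (0.04) and Mcm4 (0.05) lay within 2 counting SE of 0. Of the polymerase alpha-primase genes, Pola2 moved from -0.02 to 0.03, and the others stayed below 0. The ratios left after removal of the trend were not tested. The part of GC content in each difference was not tested further.

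**Figure D5:**
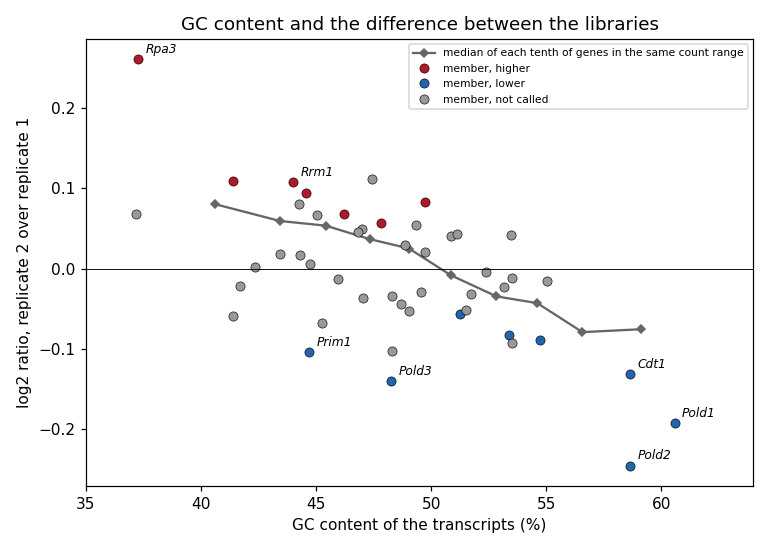
Log2 ratio of replicate 2 over replicate 1 (y) against the GC content of a gene's transcripts (x, %) for the 48 members, coloured by call, and the median ratio in 10 bins of genes in the same count range (grey line). The grey line falls from 0.08 to -0.08, and Pold1, Pold2 and Cdt1 lie at the right below 0.

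Since the cells lack AGO1 and AGO2 by label, matches to a main microRNA seed of mouse embryonic stem cells were counted as a property of the transcripts. The mature sequences below share the same seed, bases 2 to 8, in capitals.
mmu-miR-291a-3p: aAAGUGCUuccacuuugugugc
mmu-miR-294-3p: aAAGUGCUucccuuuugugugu
mmu-miR-295-3p: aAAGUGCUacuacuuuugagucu
mmu-miR-302d-3p: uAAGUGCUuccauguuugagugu
A match was AGCACTT or GCACTTA in the 3′ UTR of the longest coding transcript. It was present in 9 of 48 members (18.8%) and in 20.6% of 12485 expressed protein-coding genes with a UTR, a share per gene near the background. The 3′ UTRs of the members were shorter, with a median of 687 bases against 1123. Per kilobase they held 0.198 matches against 0.166, and this difference was not tested. The 9 genes were Cdc6, Cdt1, Gins3, Mcm6, Orc4, Pola1, Pole3, Rfc2 and Rpa2, each with 1 match. Of these, Cdc6, Cdt1, Gins3, Mcm6 and Pola1 also hold the E2F motif. The sites of the loader gene Cdt1 and the helicase gene Mcm6 are shown as examples, with the match in capitals.
Cdt1: cagtacacgacGCACTTAcgcctttaagc
Mcm6: catggtgacacGCACTTAaatcctagtgc
Whether these sites are used cannot be read from these libraries.

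Mcm7 is also a microRNA host. Annotated Mir25 and Mir93 lie on its strand within exons of its transcripts, over 84 and 88 bases, and Mir106b belongs to the same cluster. The seeds of mmu-miR-93-5p and mmu-miR-106b-5p differ from the seed above by a shift of 1 base, and that of mmu-miR-25-3p is unrelated.
mmu-miR-93-5p: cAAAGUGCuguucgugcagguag
mmu-miR-106b-5p: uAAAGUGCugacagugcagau
mmu-miR-25-3p: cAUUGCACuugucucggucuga
Mature microRNAs were not measured here. Of the Mcm7 sequence, 18.1% recurs in other genes, mainly Gm5487, which was the largest share after Pcna among the members, none of which reached 20%.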

How the data were processed

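The labels' protocols name Trizol extraction, a TruSeq kit with 1 ug of total RNA, and reverse-stranded libraries of polyadenylated RNA. The submitters' processing notes name STAR 2.4.2a and mm10 (GRCm38). The deposited files hold raw read counts per Ensembl gene. How reads were counted, and with which strand setting and annotation, was not given in the sources used here. Overlapping genes may therefore share reads: exons of 14 members overlap a gene on the opposite strand and those of 4 a gene on the same strand.

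Gene names, exon lengths and positions came from GENCODE M21 (GRCm38), which named 47224 of 47643 IDs. The other 419 took 0.116 and 0.124% of counts. CPM was computed on library totals, so that 1 count equals 0.0287 CPM in replicate 1 and 0.0336 CPM in replicate 2, and TPM on the union of exons. GC content was taken over all transcripts of a gene. Shared sequence is the percentage of a gene's 50-base stretches found in transcripts of other genes.

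With 1 group of 2 libraries, conditions could not be tested. The libraries were set against each other, replicate 2 over replicate 1, by an exact binomial test at library sizes scaled by edgeR 4.0.16 TMM factors (0.999 and 1.00), called at an adjusted p under 0.05. Ratios had 0.5 counts added and levels on the log2 scale 1 TPM. For edgeR's exact test the libraries were treated as 1 group to obtain a trended dispersion (common biological coefficient of variation 10.0%), which contains the differences it is set against. Both tests were also run on data simulated with counting error only. Such data cannot show how the tests treat spread beyond counting error. Other settings were DESeq2 1.42.0 size factors, totals without TMM, other filters, thresholds, pseudocounts and lengths, and removal of a lowess trend (fraction 0.3).

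All 48 members are named. From each further list the 2 highest and 2 lowest genes by TPM are named, and any called with a log2 ratio past 0.5. A gene that this rule names is not reported here. The rule for the members uses gene names and no measured value, but members and lists were chosen with earlier results of these data known. Promoters and microRNAs are from RefSeq (GRCm38.p6). For 35 of the 39 members with a window, bases after the start were found in the gene's own transcripts. Protein sequences were not used here.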

Additional observations from a re-analysis of the deposited data

How the results depend on the processing

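All 48 members were expressed under each setting tried (0.5 or 5 CPM, 1 TPM, either library alone). Their median log2(TPM + 1) of 6.23 ran from 6.21 to 6.25 with 1 library left out, was 6.38 with the length of the longest coding transcript, and was 6.53 in CPM. With that transcript length the ratio of highest to lowest member was 3.39 for origin recognition, 5.34 for the loaders, 2.65 for the helicase, 8.64 for helicase activation, 2.07 for polymerase alpha-primase, 2.59 for delta, 2.50 for epsilon, 14.2 for clamp and loader, 1.64 for RPA, 1.92 for Lig1 over Fen1, 2.05 for ribonucleotide reductase and 4.73 for fork protection. For the loaders it ran from 4.12 to 4.46 with 1 library left out.

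The 15 calls between libraries were 13 to 16 under other scalings and filters and 0 in edgeR's exact test. DESeq2 size factors and totals without TMM changed none of the 48 single calls, and no called ratio changed sign under any setting. Removing the GC and length trend moved 27 of 48 ratios by more than their counting SE. No paired analysis was possible because the study has 1 group. The member with the fewest counts, Gins3, had 464 and 413, which sets the counting error of the lowest level. How reads of overlapping genes were assigned was not tested.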
